A study of Mus musculus with 12 samples.

Results

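The array carried a single probe for each of 2 transcripts, ENSMUST00000001667 and AK050844, that had no gene symbol and whose signal was graded with the number of whirligig alleles of Chd7. They are 2 of 22322 genes or identifiers measured well enough to be compared. Both were selected on their signal in these same arrays, as the identifiers without a symbol whose level lay far below wild type in homozygotes and in between in heterozygotes, so the differences between genotypes below describe them and carry no test. The first name is an Ensembl transcript identifier and the second a cDNA accession of the public nucleotide databases. Neither was found in the gene table of mouse assembly GRCm38.p6 used here (0 rows each), so no gene name, function or position is given for either of them. They are called by probe A_51_P227275 and probe A_55_P2345726 of the array design.

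The 12 RNA samples came from female mouse embryos at embryonic day 9.5 on a mixed C3HeB/FeJ background, in 3 genotypes of 4 arrays each: Chd7Whi/Whi, with 2 whirligig alleles and labelled as knockout, Chd7Whi/+, with 1, and Chd7+/+, with none. All came from matings of Chd7Whi/+ males and females, so embryos of every genotype had a heterozygous mother. RNA was taken from whole embryos freed of their yolk sacs and hybridised in 1 colour (Cy3). Samples of one genotype are labelled as biological replicates, with nothing to say whether each held a single embryo. In whole-embryo RNA, fewer cells of a type and less RNA per cell cannot be told apart.

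Chd7 encodes a chromatin remodeller of the chromodomain helicase family, an enzyme that uses ATP to move nucleosomes and that occupies enhancers and promoters of developmental genes. In people, mutations in one copy cause CHARGE syndrome, with defects of the eye, heart, ear and cranial nerves, and many of the affected organs receive neural crest cells. Mice that lack the protein die in midgestation, and heterozygous mice have inner ear defects, which makes genes that respond to the loss of a single copy of particular interest in this model. No probe could be tied to Chd7 itself through the gene table, so its own level is not analysed here.

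An array had 69.4% to 75.8% of its probes well above background, and its scaling point, the 75th percentile of processed signals, lay between 1115 and 1746. Each of the 3 slides carried 4 arrays with every genotype among them, but position 1 was filled by wild-type arrays alone. All 6 markers of the embryo proper (Pax3, Sox2, Meox1, Twist1, Actc1 and Myl7) and all 3 embryonic globins were well above background on 12 of 12 arrays. So were 6 of 8 markers of yolk sac visceral endoderm, with Apoa1 and Apoa4 on 11. The summed scaled signal of the visceral endoderm list lay between 2.09 and 6.24 on the log2 scale in homozygotes, and the heterozygous and wild-type arrays, up to 4.95 and 5.02, lay within that range. The mean of each of these 8 markers was nevertheless lowest in wild type. Ttr averaged 1.20 in homozygotes, 1.14 in heterozygotes and 0.10 in wild type, and Apoa1 averaged -3.33, -2.34 and -4.22. The sum lay between 6.46 and 6.86 in homozygotes, 3.84 and 6.71 in heterozygotes and 6.33 and 6.75 in wild type for the embryo proper. For the globins it lay between 6.34 and 8.09 in homozygotes, 7.48 and 8.30 in heterozygotes and 6.63 and 8.21 in wild type. Of 4 trophoblast and decidua markers 3 had a probe. Prl3d1 was well above background on 12 of 12 arrays and Tpbpa and Prl8a2 on 0 of 12. The sum of the 3 was -4.89 to -4.15 in homozygotes, -4.36 to -3.93 in heterozygotes and -4.76 to -4.38 in wild type. It mostly follows the 1 gene Prl3d1, which averaged -4.62 in homozygotes, -4.23 in heterozygotes and -4.78 in wild type, since the others were far dimmer. The part of these markers in the levels of the 2 transcripts was not tested.

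ENSMUST00000001667 was the brighter of the pair. Its processed signal was 149, 94.7, 75.5 and 110 in homozygous replicates 1 to 4, 281, 282, 231 and 178 in heterozygous replicates 1 to 4, and 600, 633, 587 and 848 in wild-type replicates 1 to 4. No value of one genotype reached into the range of another, and the probe was well above background on 12 of 12 arrays. After scaling (log2 of signal over the array's 75th percentile), its mean level was -3.82 ± 0.19 (SD, n = 4) in homozygotes, -2.40 ± 0.19 in heterozygotes and -1.16 ± 0.16 in wild type. The narrowest gap between neighbouring genotypes, 0.90 between the highest homozygous and the lowest heterozygous array, was more than the range of the arrays within any genotype (0.35 to 0.44).

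AK050844 was much dimmer. Its processed signal was 13.1, 10.8, 6.41 and 13.8 in homozygous replicates 1 to 4, 34.8, 34.3, 24.6 and 17.4 in heterozygous replicates 1 to 4, and 84.8, 57.6, 56.9 and 65.7 in wild-type replicates 1 to 4. The genotypes again did not overlap, but in homozygotes the probe was not well above background on any of the 4 arrays, while it was on 4 of 4 in each of the other genotypes. The separation was also weaker. On the scaled log2 signal the narrowest gap was 0.64, between the highest heterozygous and the lowest wild-type array. It was less than the range within heterozygotes (0.72) and within homozygotes (0.70), and more than that within wild type (0.51). Its mean scaled level was -7.12 ± 0.30 (SD, n = 4) in homozygotes, -5.56 ± 0.35 in heterozygotes and -4.49 ± 0.25 in wild type. The homozygous mean is therefore only a measured value below the detection limit. The brightness of the spot was 1.39 to 1.52 times its local background in homozygotes, 1.85 to 2.29 times in heterozygotes and 2.92 to 3.49 times in wild type.

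**Figure D1:**
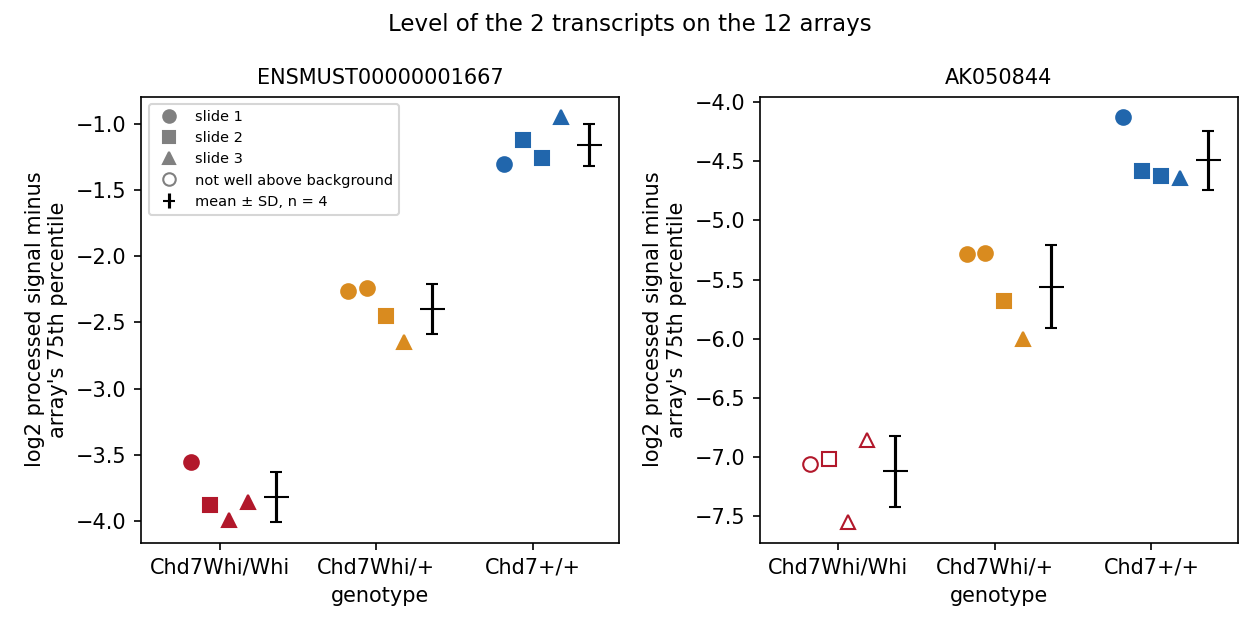
Scaled log2 signal of ENSMUST00000001667 (left) and AK050844 (right) by genotype, 1 point per array, with the slide given by the shape and the mean ± SD (n = 4) beside the points. The genotypes are separated for both transcripts, and the 4 homozygous points of AK050844 are open because the probe was not well above background there.

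The software's own error of a spot set how well each level was known. It was at most 10.6% of the processed signal for ENSMUST00000001667 over the 12 arrays. For AK050844 it was 23.8% to 44.8% in homozygotes, 13.0% to 19.6% in heterozygotes and at most 11.8% in wild type. The spread between arrays of a genotype, pooled over the genotypes, was 0.18 on the log2 scale for ENSMUST00000001667 and 0.30 for AK050844, where the median of all 22322 features was 0.21.

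As a description, ENSMUST00000001667 differed by -2.66 ± 0.13 (SE of the fit, log2) between homozygotes and wild type, a level in homozygotes of 15.8% of wild type. In heterozygotes it differed by -1.24 ± 0.13 from wild type, at 42.3% of the wild-type level, and homozygotes differed from heterozygotes by -1.42 ± 0.13. For AK050844 the measured difference was -2.63 ± 0.21 between homozygotes and wild type and -1.56 ± 0.21 between homozygotes and heterozygotes. Because the homozygous arrays did not measure it well above background, the differences are also given against a floor. The floor takes, on each homozygous array, the higher of the probe's own signal and the lowest signal of any probe well above background. Against the mean of these values AK050844 was 4.95-fold lower in homozygotes than in wild type and 2.36-fold lower than in heterozygotes. These folds are not strict minimums, since the lowest signal of any probe is not the limit of this spot. On homozygous replicate 1 the probe's signal of 13.1 was above that lowest signal (11.9) without being well above background. Another background correction, described below, gave smaller differences, -0.97 and -0.46 (log2). Both sides of the comparison of heterozygotes with wild type were measured, and there AK050844 differed by -1.07 ± 0.21, at 47.7% of the wild-type level.

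On the log2 scale the heterozygous level was set against the midpoint of the other genotypes. It departed from the midpoint by 0.09 ± 0.11 (SE, log2) for ENSMUST00000001667 and by 0.25 ± 0.18 for AK050844, the second against a homozygous level below detection. Leaving out 1 array gave 0.04 to 0.17 for ENSMUST00000001667, the ends without heterozygous replicates 2 and 4. It gave 0.15 to 0.39 for AK050844, with the same arrays left out at the ends. The heterozygous difference from wild type was 46.6% of the homozygous difference for ENSMUST00000001667 and 40.6%, by its measured values, for AK050844. On the linear scale the midpoint would be 57.9% of the wild-type level for ENSMUST00000001667 and 58.1% for AK050844, so the heterozygous means of 42.3% and 47.7% were below it. The highest heterozygous array stood at 47.3% of the wild-type mean for ENSMUST00000001667 and at 58.0% for AK050844, and the lowest at 35.6% and 35.2%.

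Set among all 22322 features, the measured difference between homozygotes and wild type was the 5th lowest for ENSMUST00000001667. A feature ahead of it, Myot, was below detection in homozygotes, so this rank goes by measured values only. The measured value of AK050844 came next, but it rests on homozygous arrays below detection, so its rank is not known. Between heterozygotes and wild type they came 35th and 68th from the lowest, where the median feature differed by 0.04 and the lowest hundredth began at -0.72 (log2). All homozygous arrays lay below all wild-type arrays for both transcripts and for 8.41% of features. All heterozygous arrays lay below all wild-type arrays for both and for 2.28% of features, and all homozygous below all heterozygous for both and for 1.67%. The full order, with no overlap between any of the 3 genotypes, held for both and for 0.184% of features, that is 41. Nothing is read from these shares, since the order is what the pair was selected on. Of those 41, 35 carry a gene symbol, and Myot, which encodes a protein of the muscle Z-disc, had the lowest measured homozygous difference, from arrays on which it was below detection, followed by ENSMUST00000001667 and by the measured value of AK050844, which is below detection in homozygotes too. The opposite order, with homozygotes highest, held for 18 features.

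**Figure D2:**
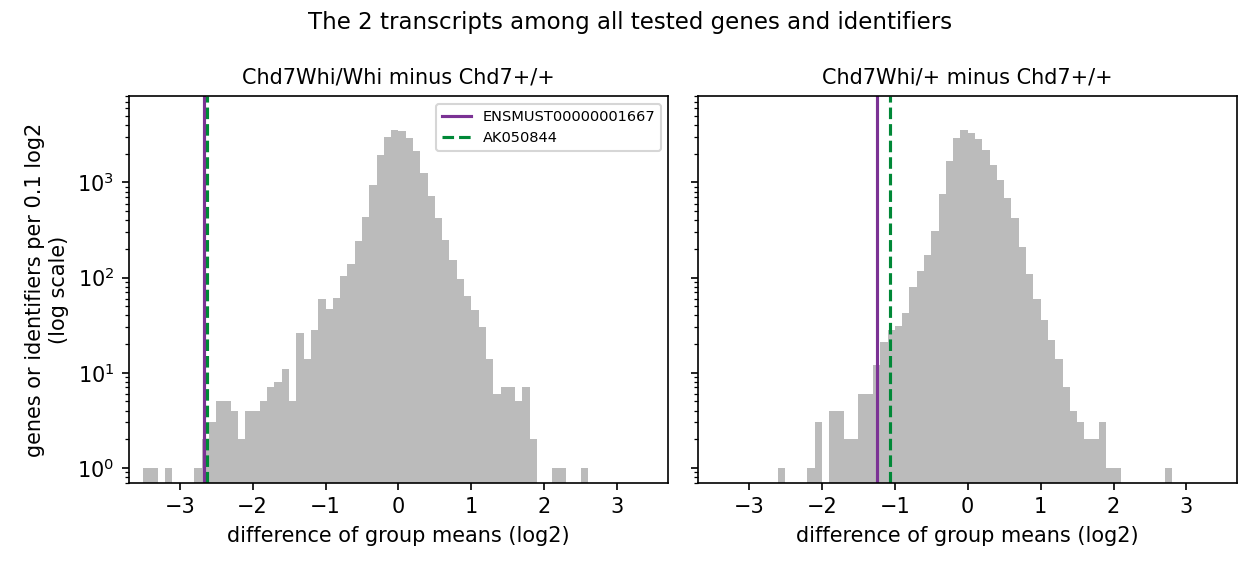
Histogram of the difference of group means (log2) over 22322 genes or identifiers for homozygotes minus wild type (left) and heterozygotes minus wild type (right), with the count per bin on a log axis and the 2 transcripts as vertical lines. Both lines lie at the outer left edge in the left panel, at -2.66 and -2.63, and inside the left tail in the right panel, at -1.24 and -1.07. Both panels share the wild-type arrays.

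The features that kept only an identifier make a narrower frame. Among 1794 features named by an Ensembl transcript alone, ENSMUST00000001667 had the lowest measured homozygous difference and the 4th lowest heterozygous one. It was the 1 feature of that kind with the full order (0.056%). Among 937 named by an AK accession alone, AK050844 had the 4th lowest heterozygous difference, while its homozygous one, below detection, is not ranked. The full order was shown by 2 features of that kind (0.213%), where the share over all features was 0.184%. Nothing is read from these ranks and counts, since the pair was selected as identifiers without a symbol that had this gradient.

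The order of the genotypes within a slide was fixed in advance, because no array of one genotype reached into another for either transcript. The values by slide therefore show only how the size of the differences varied. For ENSMUST00000001667, homozygous minus wild-type differences within slides 1, 2 and 3 were -2.25, -2.69 and -2.98 (log2), and heterozygous minus wild-type differences were -0.95, -1.26 and -1.70. For AK050844 they were -2.94, -2.41 and -2.56, and -1.16, -1.07 and -1.36. Each slide holds 1 or 2 arrays of a genotype, so these values have no error of their own. Wild-type replicate 3 was the 1 wild-type array that shared a slide position with homozygous arrays, and within that position the differences were -2.51 for ENSMUST00000001667 and -2.68 for AK050844. Heterozygous and wild-type arrays shared no position.

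Within a genotype the 2 transcripts varied only partly together. Both were lowest among heterozygotes on replicate 4 and highest on replicates 1 and 2. Both had their lowest homozygous value on replicate 3, where AK050844 was below detection with a spot error of 44.8%. In wild type they went apart: replicate 1 had the lowest wild-type level of ENSMUST00000001667 (-1.30) and the highest of AK050844 (-4.12), and replicate 4 the highest of ENSMUST00000001667 (-0.95) and the lowest of AK050844 (-4.64). Over the 12 arrays the deviations from the genotype means had a Pearson correlation of 0.41 (0.40 over the 8 heterozygous and wild-type arrays, where both were detected), and 3168 of the other features were closer to ENSMUST00000001667 on that measure than AK050844 was.

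**Figure D3:**
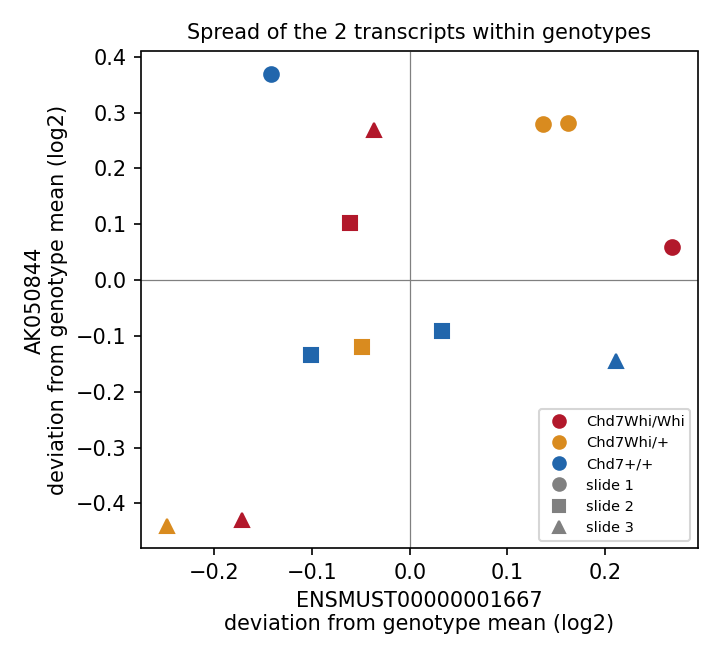
Deviation of each array from its genotype mean (log2) for ENSMUST00000001667 (x axis) and AK050844 (y axis), 12 arrays coloured by genotype, with shapes for slides. Heterozygous replicate 4 and homozygous replicate 3 lie low on both axes, and wild-type replicates 1 and 4 lie in opposite corners.

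Across genotypes the measured levels of the pair kept a similar distance. The distance between them, ENSMUST00000001667 minus AK050844 on the scaled log2 signal, averaged 3.30 in homozygotes, 3.16 in heterozygotes and 3.33 in wild type. It sets 2 probes side by side only for how the distance moves, since probes differ in how well they bind. The change of the distance was -0.03 ± 0.20 (SE, log2) between homozygotes and wild type and -0.17 ± 0.20 between heterozygotes and wild type, less than its error in both. The homozygous distance uses levels of AK050844 that were below detection on 4 of 4 arrays, so the first of these changes is not a measured one, and the pair was selected for the same gradient. Over the 12 arrays the Pearson correlation of the 2 transcripts was 0.97. On this measure each was the feature most like the other among 22321, with or without a symbol. The arrays fall into genotypes and both transcripts were selected for the same gradient, so this likeness is a description with no test.

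Genes with a symbol whose levels most resembled ENSMUST00000001667 over the 12 arrays were Vit (Pearson r = 0.972), which encodes the matrix protein vitrin, Slc9b2 (0.965), a sodium and proton exchanger, Lin28b (0.963), an RNA-binding protein that blocks let-7 maturation, Zfp711 (0.962), a zinc finger protein, and Myot (0.962). In all, 16 features had r above 0.95 with ENSMUST00000001667. Vit averaged -5.11 ± 0.23 (SD, n = 4) in homozygotes, -3.80 ± 0.16 in heterozygotes and -3.00 ± 0.20 in wild type on the scaled log2 signal, and its genotypes did not overlap. Lin28b had smaller differences, at 2.89 ± 0.08 in homozygotes, 3.31 ± 0.16 in heterozygotes and 3.72 ± 0.09 in wild type. Slc9b2 and Zfp711 had homozygous differences from wild type of -0.90 ± 0.09 and -0.81 ± 0.09 (SE, log2), about the size of that of Lin28b (-0.83 ± 0.08), all well short of the -2.66 of ENSMUST00000001667. Myot was well above background on 0 homozygous, 0 heterozygous and 4 wild-type arrays. Against the floor used for AK050844 it was 2.37-fold lower in homozygotes than in wild type, which is not a strict minimum. With normexp background correction the homozygous differences of Myot and Vit were -0.84 and -1.33, against -3.36 and -2.11 as reported.

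Closest to AK050844 were Slitrk1 (r = 0.961) and Slitrk6 (0.960), transmembrane proteins of developing neurons and of the ear, Nap1l5 (0.961), of the nucleosome assembly protein family, Vit (0.961) and Alx1 (0.960), a homeobox factor of facial mesenchyme. Of the 5 genes, Vit alone was also among the 5 closest to ENSMUST00000001667. Slitrk6 averaged -4.18 ± 0.25 (SD, n = 4) in homozygotes, -2.93 ± 0.42 in heterozygotes and -1.97 ± 0.11 in wild type. Alx1 averaged -3.21 ± 0.19 in homozygotes, -2.03 ± 0.35 in heterozygotes and -1.07 ± 0.37 in wild type, and its heterozygous and wild-type arrays overlapped. Slitrk1 was well above background on 2 of 4 homozygous arrays and differed there from wild type by -1.27 ± 0.11 (SE, log2), and Nap1l5 by -0.72 ± 0.07. With normexp correction the difference of Slitrk1 was -0.62. These correlations come from 12 arrays in 3 genotypes, 4 of the arrays with AK050844 below detection. They are the highest among those of the 22321 other features that have a symbol, and carry no test.

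**Figure D4:**
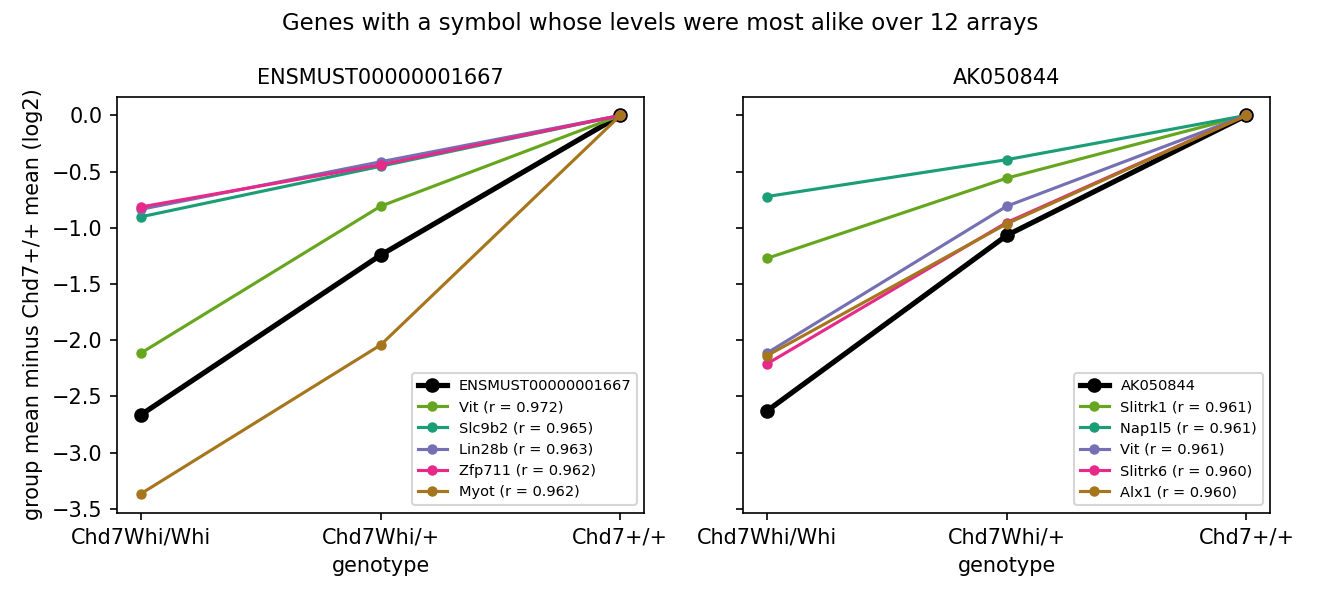
Group means relative to the wild-type mean (log2) for each transcript (black) and the 5 genes with a symbol whose levels were most alike over 12 arrays (r in the legend). Every line is lowest in homozygotes and lies in between in heterozygotes, while the size of the homozygous difference runs from -0.72 for Nap1l5 to -3.36 for Myot. The last is a measured value from homozygous arrays on which Myot was not well above background.

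The genes with the most opposite course were Rasl10a (r = -0.951), which encodes a Ras-like GTPase, Zhx2 (-0.949), a zinc finger and homeobox protein, and Mtmr11 (-0.946) for ENSMUST00000001667. For AK050844 they were Gfra2 (-0.967), a receptor for neurturin, Tfap2c (-0.949), an AP-2 transcription factor, and Fam162b (-0.943). Gfra2 averaged -0.59 ± 0.24 (SD, n = 4) in homozygotes, -1.41 ± 0.13 in heterozygotes and -1.74 ± 0.22 in wild type. Rasl10a, Zhx2 and Mtmr11 differed by 1.72 ± 0.18, 1.01 ± 0.13 and 1.03 ± 0.11 (SE, log2) between homozygotes and wild type. With normexp correction these values were 0.15 ± 0.34, -0.053 ± 0.34 and 0.49 ± 0.22 (SE, log2), so those of Rasl10a and Zhx2 were smaller than their error. Of the 6 embryo markers, Twist1, a factor of mesenchyme and neural crest, followed the pair most closely over the 12 arrays (r = 0.929 with ENSMUST00000001667 and 0.944 with AK050844), at 0.64 in homozygotes, 1.26 in heterozygotes and 1.58 in wild type. For the other 5, r lay between -0.13 (Myl7) and 0.50 (Sox2) with ENSMUST00000001667 and between -0.23 (Myl7) and 0.58 (Sox2) with AK050844. Actc1 and Myl7 averaged 6.39 and 3.05 in homozygotes, 5.10 and 1.90 in heterozygotes, and 6.24 and 2.81 in wild type.

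With the genotype means taken out, other genes were closest. They were Tceal9 (r = 0.975), Mcur1 (0.943), Mpzl2 (0.917), Tsen15 (0.915) and Txndc17 (0.893) for ENSMUST00000001667. They were Tceal1 (0.955), Myt1l (0.926), Dgke (0.923), Mthfs (0.920) and Gabra3 (0.918) for AK050844. The second list includes homozygous arrays on which AK050844 was below detection, with spot errors of 23.8% to 44.8%. Myt1l itself was well above background on only 3 homozygous and 2 heterozygous arrays. Mthfs ran against AK050844 in level, with r = -0.35 over the 12 arrays. No gene was in both of these lists. The correlations are the highest among those of the 22321 other features that have a symbol, on 12 arrays with the genotype means removed.

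The surroundings of the 2 spots were measured apart from the signal that selected them. The local background of the ENSMUST00000001667 spot lay between 16 and 20 in homozygotes, between 19 and 25 in heterozygotes and between 17.5 and 25 in wild type. That of the AK050844 spot was 23 to 28.5, 21 to 28.5 and 23.5 to 28 in the same genotypes. In log2 units the background differed by -0.22 between homozygotes and wild type for ENSMUST00000001667 (exact two-sided permutation test, p = 0.171, adjusted 0.514 over 6 comparisons), and by -0.03 for AK050844 (exact permutation p = 0.714, adjusted 0.857). The largest shift was -0.30, between homozygotes and heterozygotes for ENSMUST00000001667 (exact permutation p = 0.114, adjusted 0.514). None of the 6 comparisons passed after Benjamini-Hochberg adjustment. Because 4 arrays against 4 cannot give a p below 0.0286, a lone difference could not have passed it, so nothing is concluded from this. The 8 nearest spots had a median homozygous minus wild-type difference of 0.16 (0.10 to 0.41) around ENSMUST00000001667 and -0.08 (-0.24 to 0.24) around AK050844, against -2.66 and -2.63 for the spots themselves. Between heterozygotes and wild type their medians were 0.34 (0.09 to 0.77) and -0.09 (-0.20 to 0.76), against -1.24 and -1.07.

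Background correction moved 5 of the 6 differences between genotypes by more than the spread between replicates. With normexp correction and an offset of 50, which is added before the log2 and shrinks differences most for dim probes, ENSMUST00000001667 differed by -2.03 between homozygotes and wild type and by -0.90 between homozygotes and heterozygotes. AK050844 then differed by -0.97 ± 0.28 (SE, log2) between homozygotes and wild type, -0.51 ± 0.28 between heterozygotes and wild type and -0.46 ± 0.28 between homozygotes and heterozygotes. The sign was negative in each of these comparisons, but the differences of AK050844 that involve heterozygotes were not large against their error. The heterozygous minus wild-type difference of ENSMUST00000001667 was -1.13 with normexp correction and -1.04 with array position as a block. The second value is indirect, through the homozygous arrays, since heterozygous and wild-type arrays shared no position.

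**Figure D5:**
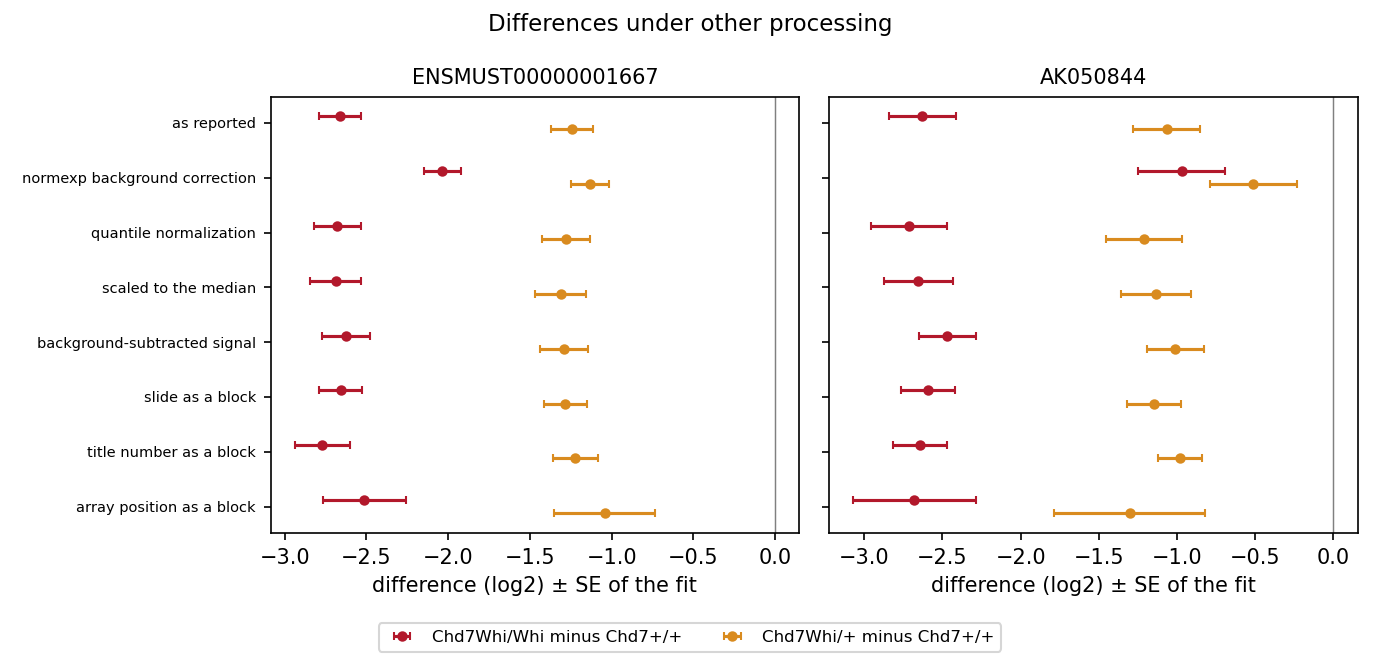
Differences from wild type (log2, ± SE of the fit) of both transcripts in homozygotes and heterozygotes under the reported processing and 7 others. All values are below 0, and normexp background correction gives the smallest homozygous differences, -2.03 for ENSMUST00000001667 and -0.97 for AK050844.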

How the data were processed

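The files are Agilent Feature Extraction 10.7.3.1 output of 12 one-colour arrays, per the file headers; the submitters' processing notes also name limma, with no version. The deposited intensity values used are the processed signals, corrected within the array by that software and not scaled between arrays, per the file headers. The deposited table of the series held the same intensities (largest relative difference 0).

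Here log2 of the processed signal minus each array's 75th percentile over non-control spots was taken. Control spots (1377) and outlier spots (171 to 386 per array) were left out, and no spot was saturated. Of 39429 probes 26055 were named by accession in a RefSeq table, and per name the probe with the highest mean was kept. A feature was compared when it was measured on 12 arrays and, in at least 1 genotype, each array had it well above background. A linear model with a mean per genotype gave differences and standard errors (9 residual degrees of freedom); Pearson correlation measured likeness. The model, the no-overlap count and the correlation were checked on data simulated with known answers. Normexp and quantile normalization used limma 3.58.1 in R 4.3.3, and the rest Python 3.11.15.

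The transcripts, lists and rules were chosen with earlier results of these data known. For each transcript, the genes named are the 5 with a symbol most alike in level, the 3 most opposite, and the 5 most alike once genotype means were removed. Replicate numbers follow accession order and only name arrays. Precision is limited by 4 arrays per genotype. The planned look at neighbouring genes was not run, since neither transcript was located.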

Additional observations from a re-analysis of the deposited data

Results flagged for a closer look

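In 2 of 51 groups of 4 arrays looked at, 1 array stood apart, its gap to the nearest of the others divided by the group's range exceeding Dixon's 95% critical value; chance flags about 1 group in 20. For AK050844 in wild type the ratio was 0.896, with replicate 1 at -4.12 (scaled log2) and the other arrays at -4.58, -4.63 and -4.64. Without that array AK050844 differed by -2.50 between homozygotes and wild type and by -0.94 between heterozygotes and wild type. For Alx1 in heterozygotes the ratio was 0.897, with replicate 2 at -1.51 and the other arrays at -2.22, -2.25 and -2.17.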

How the results depend on the processing

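Differences of the 2 transcripts were recomputed under 8 alternatives and with each array left out in turn. With an array left out, every difference between 2 genotypes moved by less than the spread between replicates. Its sign could not change, since the genotypes did not overlap. Homozygous minus wild type ran from -2.75 to -2.59 for ENSMUST00000001667 and from -2.72 to -2.48 for AK050844. Normexp background correction moved 5 of the 6 differences by more. For ENSMUST00000001667 they became -2.03 and -0.90 (homozygous minus wild type and minus heterozygous), and its heterozygous departure from the midpoint became -0.11. For AK050844 they became -0.97, -0.51 and -0.46, each ± 0.28 (SE), and its departure was -0.027. Array position as a block, added after seeing the data, gave -1.04 ± 0.31 for ENSMUST00000001667 in heterozygotes against wild type. These genotypes shared no position, so this value is indirect, through the homozygous arrays. On the wild-type side it rests on replicate 3 alone. The departure of heterozygotes from the midpoint ranged from 0.04 to 0.17 for ENSMUST00000001667 and from 0.15 to 0.39 for AK050844 with 1 array left out. With the title number before the point as a replicate block, homozygous minus wild type was -2.77 and -2.64. The departure from the midpoint was then 0.16 ± 0.13 and 0.34 ± 0.13. Homozygous replicates 1 and 4 are the only arrays with their title numbers, so they add nothing to these values. The labels do not say what the title number marks. Over all features, the deviations from the genotype means of 11 pairs of same-numbered arrays of different genotypes correlated at -0.32 to 0.29 (median 0.02). For 37 pairs with different numbers the values were -0.34 to 0.24 (median 0.02). Such correlations cannot show whether arrays with the same number are related, so the number was used only in this alternative. For AK050844 the SE of the departure was 0.13 with this block, against 0.18 as reported. Other changes were within the spread between replicates.

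Of 15 genes named for a like or opposite level, Zhx2 changed sign with normexp, to -0.053 ± 0.34 (SE), a value smaller than its error. With normexp 8 others moved by more than the spread between replicates and 6 did not. Array position as a block moved 4. Lists of like genes depended on the measure: with Spearman correlation 1 of 5 was shared for each transcript, and with quantile normalization 4 for ENSMUST00000001667 and 2 for AK050844. AK050844 drops out when a probe must be well above background on all 12 arrays. Features with all homozygous below all heterozygous arrays numbered 687 with normexp, against 373.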
